A study of Mus musculus with 6 samples.

Results

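This report describes the mouse coding transcripts whose stop codon is followed by at least 1 further intron, as they stand in the gene annotation that the authors deposited for read counting on mm10. A transcript was taken when it had a start codon, a stop codon and 2 or more exons, lay on a main chromosome, and had its last stop codon base more than 55 spliced bases before the last exon junction. Of 48173 coding transcripts with 2 or more exons, 4036 had this feature (8.38%). They belonged to 2702 of 19778 genes (13.7%). The study sequenced RNA of mTAL cells, an immortalised mouse line. It came from thick ascending limb segments of the nephron, microdissected from the immortomouse. The cells were transduced with a lentiviral vector for GFP-tagged human uromodulin, in 3 libraries with the wild type protein (WT) and in 3 libraries with the C150S isoform, in which a cysteine is replaced. Both groups were at passage 3 and grew in the same medium, which held interferon gamma and dexamethasone. They were mixed populations after transduction, not clones, and the line no longer shows thick ascending limb markers such as uromodulin itself. The values below are positions in the annotation that served all 6 libraries alike, so they have no replicates, no depth and no difference between WT and C150S cells. Levels of these transcripts in the cells were not analysed here.

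Splicing leaves an exon junction complex on the messenger RNA near each junction, and the ribosome removes those that it passes. A stop codon well before the last junction leaves a complex behind on the downstream RNA. Upf1 and its partners read this as a sign of a premature stop and lead the RNA into nonsense mediated decay. Many genes for splicing factors are known to use the pathway on their own RNA. Their protein favours an unproductive splice form, often through a so-called poison exon with a stop codon in it. The pathway also interacts with the response to unfolded protein in the endoplasmic reticulum (ER) that the study examined. An annotated stop before a junction is a property of the transcript model and was not measured as decay here.

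The stop codons of the Srsf family are shown first, since SR proteins are the textbook case of this control. Each window holds the stop codon in capitals with 12 bases on either side in lower case, 5′ to 3′ along the transcript, and was read from GENCODE M21 transcripts on GRCm38, the assembly also named mm10. The Srsf1 window (chr11:88050001-88050027, plus strand) serves both Srsf1 transcripts, and the Srsf11 window (chr3:158024197-158024223, minus strand) serves both transcripts that hold the same exon. The second Srsf11 stop lies at chr3:158023298-158023324 on the minus strand. Srsf3 is at chr17:29039473-29039499 and Srsf5 at chr12:80947116-80947142, both on the plus strand. The Srsf2 windows cross a junction just after the stop codon, which lies at chr11:116852028-116852030 on the minus strand, and run on into different exons.
Srsf1: aatgctttggatTAAggattgtggagc
Srsf2, longer transcript: gcagtttcttccTAAgaaaatgctgcg
Srsf2, shorter transcript: gcagtttcttccTAAgaaaatgatgaa
Srsf3: ctcaccaccctcTGAatctgcattagc
Srsf5: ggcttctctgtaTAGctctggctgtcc
Srsf11, shared exon: cctggttcagccTGAactatataccag
Srsf11, other exon: gcttttgaaagtTGAgagcacacccct

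A second set gives the stops of ER stress genes and of regulators with contrasting arrangements. Hyou1 (chr9:44385575-44385601, plus strand), Pdia3 (chr2:121431717-121431743, plus strand) and Derl2 (chr11:71013608-71013634, minus strand) have a stop within sequence that another transcript of the gene translates. The Ufd1l window (chr16:18815887-18815913, plus strand) and the Tra2b window (chr16:22259169-22259195, minus strand) lie in exons that the other coding transcripts skip. The Hnrnpa2b1 window (chr6:51463420-51463446, minus strand) holds the stop codon that another coding transcript of the gene uses too.
Hyou1: gctcccagaatcTGAccacagtaaaac
Pdia3: ctgaaaagaaaaTGAccagtggcaaga
Derl2: ttggtttgtttgTGAgcttagtttttt
Ufd1l: tctctcggattaTGAacagccctgatt
Tra2b: ctcaggaataagTGAagctgaaatttg
Hnrnpa2b1: aggagcagatatTAAgcttcttcctac

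Nearly all of the 2702 genes also had an ordinary coding transcript. In 2603 of them (96.3%) at least 1 coding transcript lacked the feature, and in 99 (3.66%) none did. Of these 99 genes, 85 had a single coding transcript in the annotation. Most genes held few such transcripts: 1841 had 1, 579 had 2 and 282 had 3 or more. Genes with the feature had a median of 4 coding transcripts, against 1 in the other genes. Of genes with 1 coding transcript 0.914% had the feature, and of genes with 2 it was 10.4%. The share was 23.5% at 3 coding transcripts, 33.8% at 4 or 5, 48.9% at 6 to 9 and 59.5% at 10 or more. It therefore rose with every step in the number of annotated transcripts, and among the genes with 2 or more it was 25.0% (2617 of 10483). The 5 genes with the most such transcripts were Tmem234 (13 of 16 coding transcripts), Oprm1, which encodes the mu opioid receptor (11 of 28), U2af1l4, a relative of a splice site recognition factor (11 of 20), Rsrc2 (9 of 15) and Traf7, a ubiquitin ligase (9 of 16).

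**Figure D1:**
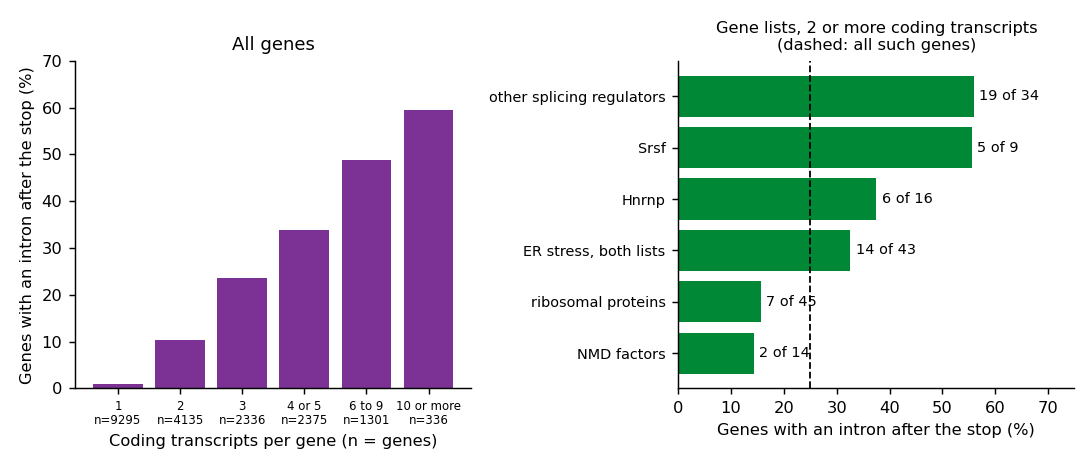
Percent of genes with at least 1 coding transcript that has an intron after the stop, by number of coding transcripts per gene (left, all genes) and by gene list among genes with 2 or more coding transcripts (right, dashed line at 25.0% for all such genes). The left bars climb from 0.914% to 59.5%, and on the right the Srsf genes (5 of 9) and the other splicing regulators (19 of 34) stand above the line while ribosomal proteins (7 of 45) stand below it.

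The stop was usually far from the last junction. The distance ran from 56 to 9212 spliced bases, with a median of 351 and quartiles of 165.8 and 790.2. It was 56 to 100 bases in 465 transcripts, 101 to 200 in 771, 201 to 500 in 1278, 501 to 1000 in 767 and above 1000 in 755. A single intron followed the stop in 1004 transcripts (24.9%), and 4 or more followed it in 1626 (40.3%). The largest distance belonged to a transcript of Rev3l, the catalytic subunit of DNA polymerase zeta, with 9212 bases and 31 introns. It was followed by Ankrd11 (7549 bases), the Wnt co-receptor Lrp5 (7473 bases) and 2 transcripts of Polq, DNA polymerase theta (7083 and 6246 bases). The most introns after a stop were 38, in the calcium channel gene Cacna1f, then 37 in filamin A (Flna), 34 and 33 in 2 transcripts of Brwd3 and 32 in Ulk4. Transcripts of Riiad1, Trim5 and Mroh8 lay just inside the limit, at 56 bases. Transcripts of Elk3, Pml and Eif2d lay just outside it, at 55.

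A stop anywhere before the last junction, or ending exactly at it, was found in 6179 transcripts (12.8%), of which 2143 were at 0 to 55 bases. Near the limit 67 transcripts fell at 46 to 50 bases, 71 at 51 to 55 and 55 at 56 to 60. GENCODE M21 gives each transcript a class, and its annotators assign the class nonsense mediated decay from the position of the stop, so this class is not independent of the rule. Of the 3902 transcripts found in M21, 3570 (91.5%) were in that class and 228 (5.84%) were protein coding. In the other direction, 94.8% of the 3766 transcripts of that class had the feature. The class held 3.74% of the transcripts at 41 to 50 bases, 80.3% at 51 to 55 and 82.7% at 56 to 60. The change of class thus sat a few bases below the limit used here, and 53 transcripts of the class at 51 to 55 bases were left out by it. Among the 228 protein coding ones, 114 (50.0%) ended at the same stop as a transcript without the feature, and 45 came from genes with no such transcript.

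**Figure D2:**
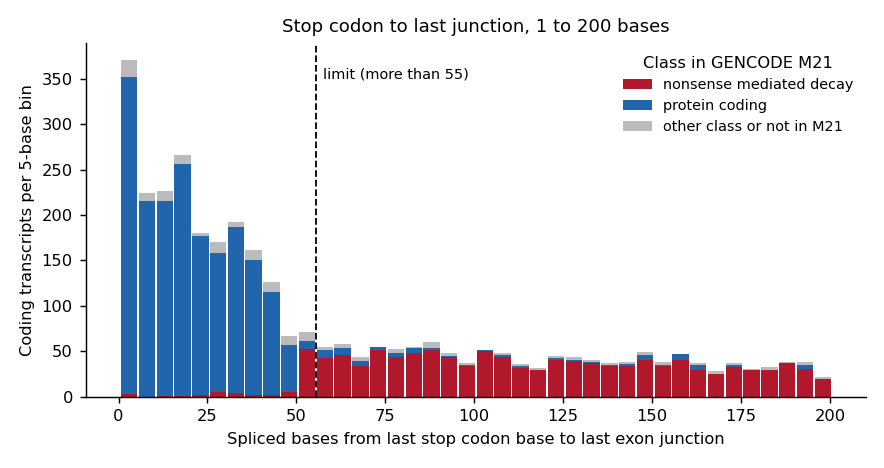
Number of coding transcripts in 5-base bins of the spliced distance from the last stop codon base to the last exon junction, from 1 to 200 bases, coloured by class in GENCODE M21, with a dashed line at the limit. Protein coding models fill the bins up to 50 bases, and from 51 bases on most transcripts are in the nonsense mediated decay class.

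The coding sequences were short. With the stop codon they had a median of 333 bases (quartiles 195 and 687), against 1035 bases in the other transcripts with 2 or more exons. The number of exons did not separate them, with a median of 7 in both. A comparison with the longest coding sequence without the feature in the same gene was possible for 3919 transcripts. The median was 24.8% of that length, with quartiles of 12.6% and 49.5%. The coding sequence was shorter than this reference in 3666 transcripts (93.5%) and longer in 35. In 2822 of the 3919 (72.0%) the start codon was the one of a transcript without the feature. The last junction was shared with such a transcript in 3123 (79.7%), and in 3039 (77.5%) it lay within sequence that such a transcript translates.

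**Figure D3:**
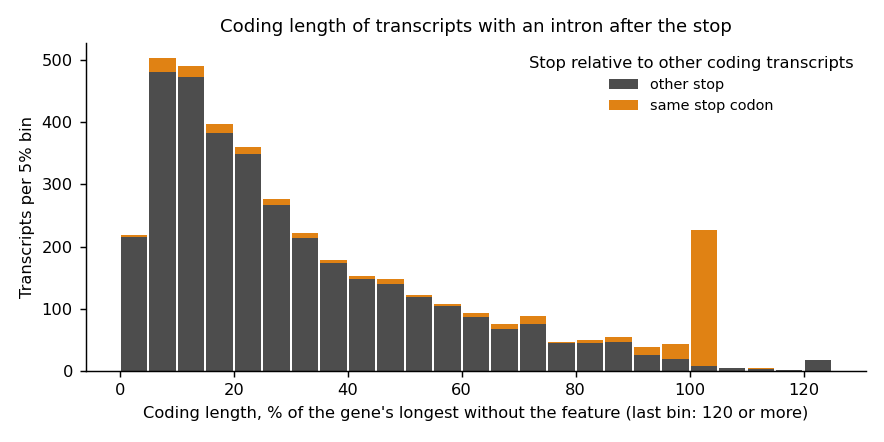
Coding length of 3919 transcripts as percent of the longest coding sequence without the feature in the same gene, in 5% bins, with transcripts that share their stop with such a coding sequence in orange. Most transcripts lie below 50%, and a separate orange column stands at 100%.

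The position of the stop fell into a few kinds. In 2261 transcripts (56.0%) the stop lay inside sequence that another transcript of the gene translates. For 2038 of them such a transcript with a complete coding sequence was at hand, and in 2013 (98.8%) each of these read the stop in another frame. A complete coding sequence would end at a stop read in its own frame. This share thus follows largely from the definition and is not a separate result. In 771 transcripts (19.1%) the stop lay in an exon that overlapped no exon of the transcripts without the feature. In 584 of these (75.7%) it was a cassette exon, skipped by a junction between its neighbours in such a transcript, the arrangement of a poison exon. There were 556 distinct cassette exons in 513 genes, from 13 to 1515 bases long with a median of 119. Of the 584 transcripts 62.5% had one whose length was not a multiple of 3, a share that was not compared with other exons. A further 394 transcripts (9.76%) had the stop in the added stretch of a longer exon, and 22 (0.545%) in a retained intron. In 60 (1.49%) the stop lay in exon sequence that other transcripts leave untranslated.

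A different arrangement was seen in the 411 transcripts (10.2%) that used the same stop codon as a transcript without the feature. In 309 of them the shared stop was that of the longest coding sequence without the feature. There the further intron lay in the 3' untranslated part. In the rest a different coding sequence ended at the shared stop, which can be an early one. Short coding sequences of this kind were found in Rbm39 (41 codons, 7.72% of the longest) and Hnrnph3 (72 codons, 20.7%). Among the 411 the median coding length was 100% of the longest, and in 217 (52.8%) it was equal to the longest. A single intron followed the stop in 244 of the 411 (59.4%). In M21, 67.9% of those found were in the nonsense mediated decay class, against 97.4% of those with a stop inside translated sequence. The remaining 117 transcripts (2.90%) had no coding transcript to compare with, and 28.7% of those in M21 were in that class.

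**Figure D4:**
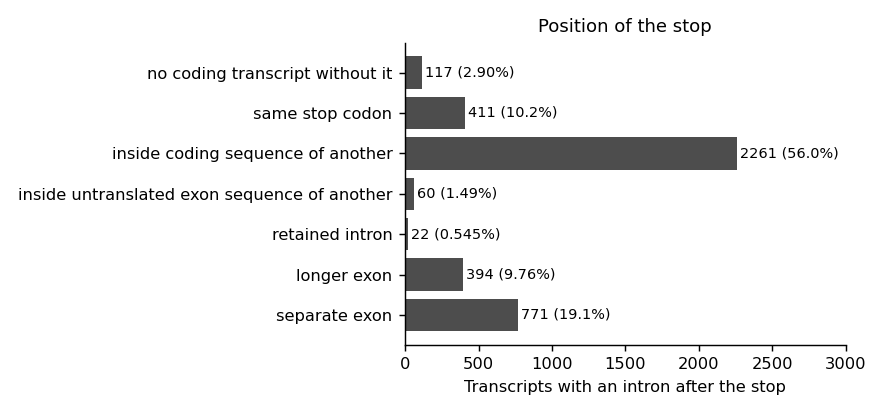
Number and percent of the 4036 transcripts by where the stop lies relative to coding transcripts of the same gene without the feature. The largest bar is the 2261 transcripts with a stop inside translated sequence of another, followed by 771 with a stop in a separate exon.

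Codon rows in this annotation were checked against sequence, since every one of the 51560 transcripts with coding rows carried both a start and a stop codon row. The same exons were found in M21 for 3651 of the 4036 transcripts (90.5%), and 3650 of these had a stop triplet at the deposited stop. The exception was a transcript of Muc19, a mucin gene. TGA made up 57.8% of the triplets, TAA 22.4% and TAG 19.7%. In the other transcripts with the same exons the shares were 50.6%, 26.1% and 23.3%, and 19.2% of them had no stop triplet at all. TGA was at 64.1% where the stop lay inside translated sequence of another transcript, at 49.6% in separate exons, at 48.3% in longer exons and at 52.3% at shared stops. At the other end, 924 of the 3651 (25.3%) did not begin with ATG, against 8.52% of the others, and their coding sequence is called open at the 5' end below. A complete coding sequence with ATG, stop and frame was found in 2717 (74.4%), about the same as the 74.7% of the others. The support levels were lower. GENCODE's support level 1, given when good messenger RNA sequences cover every junction, was held by 36.6% against 60.8% of the other transcripts, and level 5, with no single RNA behind the model, by 37.5% against 22.5%.

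The Srsf genes encode SR proteins, which bind exons and help to recruit the splicing machinery. Of 11 Srsf genes 5 had the feature (45.5%), and of the 9 with 2 or more coding transcripts it was 55.6%, beside 13.7% and 25.0% of all genes. The feature was found in 9 of 37 Srsf transcripts (24.3%), beside 8.38% of all transcripts. Srsf1, Srsf2, Srsf3, Srsf5 and Srsf11 had it, while Srsf4, Srsf6, Srsf7, Srsf9, Srsf10 and Srsf12 did not. Of the latter, Srsf6 and Srsf7 had 1 coding transcript each, Srsf4, Srsf9 and Srsf12 had 2, and Srsf10 had 4. Noncoding transcripts of these 6 genes were not searched for stops. With identical exons in M21 and a complete coding sequence required, 3 of the 5 genes remained, beside 2031 of all 2702 genes with the feature. Srsf1 was lost as open at the 5' end, and Srsf3 because its exons differ in M21 and it could not be checked.

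In Srsf3 the stop lay in a cassette exon of 456 bases (exon 4 of 7, chr17:29039454-29039909), after 125 codons with the stop, which is 75.8% of the longest coding sequence, and 548 bases and 3 introns before the last junction. In Srsf11 a 109-base exon (chr3:158024123-158024231) held the stop in 2 transcripts, at distances of 456 and 196 bases. The third Srsf11 transcript stopped in another exon, 67 bases before its last junction. The Srsf11 transcripts at 196 and 67 bases were open at the 5' end. The Srsf5 transcript stopped after 47 codons in an exon with 195 bases that the other coding transcripts lack, at a distance of 251 bases. The Srsf2 transcripts kept the usual stop and had introns after it. The longer of them had the full 222 codons, 3 later introns and a distance of 217 bases, and the shorter was open at the 5' end with a distance of 113 bases. In both Srsf1 transcripts the stop lay in an exon of 119 bases, 80 bases before the junction, within sequence that another Srsf1 transcript leaves untranslated. Both were open at the 5' end. The Srsf cases thus included poison exons, a longer exon and introns in the 3' untranslated part.

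**Figure D5:**
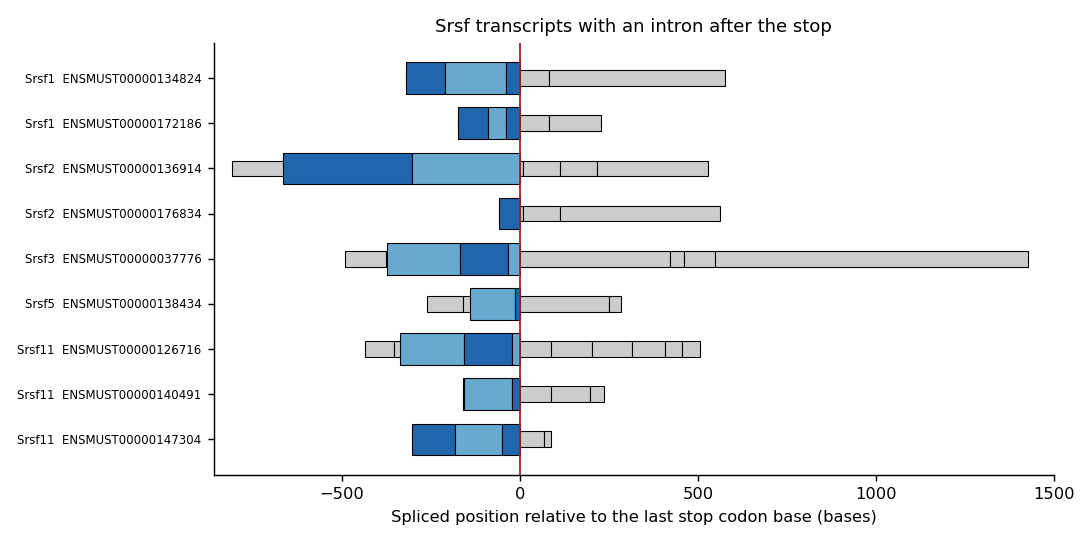
The 9 Srsf transcripts with an intron after the stop in spliced bases, aligned at the last stop codon base (red line at 0), with exons as boxes separated at their junctions, coding sequence tall and blue (shades alternate by exon) and untranslated sequence low and grey. Every transcript has at least 1 junction to the right of the line, from 67 bases (Srsf11) to 548 bases (Srsf3) for the last one.

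The Hnrnp genes encode the proteins that package nuclear RNA and often oppose SR proteins. The feature was found in 6 of 17 Hnrnp genes (35.3%), and in 37.5% of the 16 with 2 or more coding transcripts, beside 13.7% and 25.0% of all genes. These genes had a median of 4 coding transcripts. Of all genes with 4 or 5 coding transcripts, 33.8% had the feature, which is close to the Hnrnp shares. In transcripts the feature was found in 9 of 85 (10.6%), close to the 8.38% of all. Hnrnpd, also called AUF1, a protein that binds AU-rich elements, had 4 such transcripts of 10. Of these, 3 ended at the usual stop with 2 introns after it, at 137, 137 and 101 bases, and all 3 were open at the 5' end. The fourth stopped in another frame after 87 codons. Hnrnpl had a 70-base cassette exon (chr7:28817335-28817404) with the stop in it, 842 bases and 7 introns before the last junction, in a transcript open at the 5' end. The Hnrnpu transcript reached 794 codons, 99.1% of the longest, before a stop in a separate exon with 3 introns after it. In Hnrnpk the stop came after 78 codons within translated sequence, at 238 bases, and in Hnrnph3 after 72 codons, at 609 bases, at a stop that another coding transcript shared. The Hnrnpa2b1 transcript had the full 342 codons and 2 introns after the usual stop, at 157 bases, and was protein coding in M21. It was the only one of the 9 Hnrnp transcripts that M21 did not place in the nonsense mediated decay class.

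Among other splicing regulators, 19 of 45 genes had the feature (42.2%), and 55.9% of the 34 with 2 or more coding transcripts, beside 13.7% and 25.0% of all genes. In transcripts it was 36 of 213 (16.9%), beside 8.38% of all. Rbm39, a splicing coactivator related to U2af2, had the most, with 7 of 15 transcripts. Of these, 4 stopped in separate exons and 3 at a shared stop after 41 codons. Ptbp1, the polypyrimidine tract binding protein that represses exons, had 3 of 9, at 361, 283 and 136 bases, of which the one at 283 was open at the 5' end. The 2 transcripts with the larger distances ended at the same stop triplet, within sequence that another transcript translates. Luc7l2, a protein linked to the U1 particle, had 3 of 8 with distances of 74, 780 and 790 bases. The kinases Clk1 and Clk4, which phosphorylate SR proteins, had 2 of 3 and 2 of 7. Both Clk1 transcripts stopped after 136 codons, with 8 and 7 introns to follow. Luc7l (2 of 8), Ptbp3 (2 of 11) and Rbm5 (2 of 8) had 2 each, and the Rbm5 stops lay 1795 and 1103 bases before the last junction. The others were Son and Tardbp with 2 each, and Clk2, Khdrbs1, Luc7l3, Srpk1, Srrm1, Tia1, Tial1, Tra2b and U2af2 with 1 each. The Tra2b transcript held a 276-base cassette exon (chr16:22258986-22259261) with the stop after 39 codons, 1015 bases and 8 introns before the last junction. A poison exon was thus found in Tra2b, an SR-related protein, as in Srsf3.

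The genes of the decay pathway itself made a small group. Of 21 genes for Upf, Smg and exon junction proteins and other factors linked to the pathway, 2 had the feature (9.52%). Of the 14 with 2 or more coding transcripts it was 14.3%, and the shares of all genes were 13.7% and 25.0%. In transcripts it was 4 of 49 (8.16%), about the same as the 8.38% of all. Smg6, the endonuclease of the pathway, had 1 of 3, at 1379 bases with 9 introns after the stop. Magohb, a core protein of the exon junction complex, had 3 of 6, at 147, 400 and 206 bases. The coding sequences of these 4 transcripts were open at the 5' end. No coding transcript of Upf1, Upf2, Upf3a or Upf3b had the feature, but Upf1 and Upf3a had only 1 coding transcript each, and Upf2 and Upf3b had 2.

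ER stress genes were taken from 2 lists, a textbook list and the genes that the study itself lists for its changed ER pathways. The second was chosen by the study on these samples, so it is not independent evidence for anything about them. Together 14 of 82 genes had the feature (17.1%), and 32.6% of the 43 with 2 or more coding transcripts, beside 13.7% and 25.0% of all genes. The textbook list alone had 10 of 66 (15.2%) and the study's list 8 of 48 (16.7%). In transcripts it was 28 of 185 (15.1%), beside 8.38% of all, with 23 of 146 (15.8%) in the textbook list and 11 of 112 (9.82%) in the study's list. With the limit at 200 bases, or with identical exons in M21 and a complete coding sequence required, 9 of the 14 genes remained. Of all 2702 genes with the feature, 2008 remained with the first change and 2031 with the second. Such a transcript was absent from Ern1, Eif2ak3 and Atf6, which sense unfolded protein, and from Xbp1 and Atf4, which carry the signal to the nucleus, but present in Atf6b, the relative of Atf6. It was also absent from the chaperones Hspa5 and Hsp90b1, from Dnajc3 and Manf, and from the disulfide isomerases Pdia4, Pdia5 and Pdia6. Of the genes without it, Atf6, Atf4, Dnajc3, Pdia4, Pdia5 and Pdia6 had 1 coding transcript each, Eif2ak3, Hspa5 and Hsp90b1 had 2, Xbp1 had 3, Ern1 had 4 and Manf had 6.

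The folding genes with the feature were Hyou1, Pdia3, Uggt1 and Uggt2. Hyou1, a large chaperone of the ER lumen, had 1 of 5, which stopped in another frame after 173 codons (17.3% of the longest), with 12 introns and 1389 bases to the last junction. Pdia3, a disulfide isomerase that works with calnexin, had 1 of 2, with 2 introns after the stop and a distance of 163 bases, in a transcript open at the 5' end. Uggt1 and Uggt2 mark misfolded glycoproteins for another round of folding. Uggt1 had the feature in 5 of 6 coding transcripts, the highest number in the ER lists, at 574, 348, 422, 3801 and 1211 bases. Of the 4 whose exons were found in M21, the transcript at 3801 bases, with 266 codons and 32 introns after the stop, was complete from ATG to stop and the others did not begin with ATG. Uggt2 had 2 of 4, at 807 and 273 bases, the first in a cassette exon of 159 bases, and both were open at the 5' end.

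The genes for disposal of misfolded protein were Derl2, Erlec1, Ufd1l, Txndc11 and Tmem129. Derl2, part of the channel that returns proteins to the cytosol, had 3 of 6, at 268, 215 and 417 bases, of which the one at 215 was open at the 5' end. Ufd1l, which helps Vcp to pull them out, had 3 of 7, at 441, 472 and 646 bases. The first Ufd1l transcript stopped after 73 codons in a 165-base cassette exon (chr16:18815852-18816016). Both Erlec1 transcripts, of 3, stopped in the same 78-base exon at 162 and 66 bases, but at different triplets, TAG and TAA, and both were open at the 5' end. Erlec1 is a lectin of the disposal pathway. Txndc11, a thioredoxin domain protein of the ER, had 3 of 6, at 166, 428 and 209 bases, each complete and each within translated sequence. Tmem129, an ER ubiquitin ligase, had 2 of 3 with the same stop after 81 codons in a longer exon, at 313 and 658 bases, and M21 classes both as retained intron.

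Other ER genes with the feature were Atf6b, Wfs1, Fam129a and Surf4. Atf6b, a relative of Atf6, had 2 of 5, with stops after 36 and 73 codons at 166 and 124 bases, both complete and in another frame of the gene. In Wfs1, an ER membrane protein gene, the stop codon itself was split by an intron, and lay 64 bases before the last junction in a transcript open at the 5' end. Fam129a, also called Niban, had 1 of 4, which ran for 585 codons (63.1% of the longest) and stopped 63 bases before the junction. Surf4, a cargo receptor of ER export, had 1 of 3 at 217 bases. The Wfs1 and Fam129a distances and the shorter Erlec1 distance were close to the limit, and the longest in the ER lists were 3801 and 1211 bases in Uggt1 and 1389 bases in Hyou1.

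Uromodulin had no part in this group. The mouse gene Umod had 1 coding transcript, without the feature. The added sequence of the transduced human construct had 2 exon boundaries after its stop, the last at 148 bases, but its exon rows abut, with 0 bases between them. No intron therefore followed the stop of the construct in this annotation, and it was not on a main chromosome.

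Reads were counted by gene name over all exons, so reads of these transcripts were added to those of the other transcripts of the gene. Of 2700 gene names, 1076 (39.9%) had no base that only these transcripts cover. The median share of such bases was 0.780% of the exon bases of the gene, with an upper quartile of 5.59%. It was above 10% for 481 names (17.8%) and above 50% for 122 (4.52%). In the 5 Srsf genes it was 0 bases, because other transcripts of the gene, coding or not, cover the same exons. The coding transcripts without the feature nevertheless lacked 456 bases of them in Srsf3, 195 in Srsf5, 109 in Srsf11 and 104 in Srsf2, and 0 in Srsf1. Among the ER genes Tmem129 had the most bases of its own in these transcripts (351 of 2740, 12.8%), then Txndc11 (317), Uggt1 (305) and Ufd1l (301), whereas Hyou1, Atf6b, Derl2, Surf4 and Wfs1 had 0.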

How the data were processed

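Per the labels and the methods, RNA of 3 WT and 3 C150S samples was made into TruSeq libraries and read as paired ends. The authors used CASAVA 1.8, STAR 2.3.0, HTSeq on exon rows by gene name in union mode, and limma. The deposited file used here is their annotation, with start and end positions on mm10 and no expression values, so no test between groups was run and depth is unknown.

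Exon, start codon and stop codon rows were grouped by transcript ID on chromosomes 1 to 19, X, Y and M, and distances were counted along the spliced exons. A coding transcript without the feature may have any number of exons. Classes and support levels came from GENCODE M21 by transcript ID alone, so the model there can have other exons, and codons were checked only where the exons were identical. For 8 of the 92 windows read, the exons differed and the bases came from another M21 transcript that covers them. The symbols Ufd1 and Sels were matched as Ufd1l and Vimp through a RefSeq table. Genes named were the members of the Srsf, Hnrnp and ER lists with the feature (1 ER gene and some sequences are not reported here), up to 8 with values in the NMD factor and splicing regulator lists, and the extremes of each measure. Members and lists were chosen with earlier results of these data known. Muc19, the list genes without the feature, the values of Tra2b and the Tra2b and Hnrnpa2b1 sequences were chosen after their values were seen. The steps were tested on simulated annotations and recovered 2000 of 2000 transcripts, and 600 of 600 stop positions and cassette exons. Python 3.11.15, numpy 2.4.6 and matplotlib 3.10.9 were used.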

Additional observations from a re-analysis of the deposited data

How the results depend on the processing

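The 4036 transcripts and 2702 genes became 4107 and 2744 with a limit of 50 bases, and 2800 and 2008 with a limit of 200. With a limit of 0 bases, which leaves out stops that end exactly at the junction, the transcripts rose to 6090. An alternative chosen after seeing the data required identical exons in M21 with ATG, stop triplet and frame in the sequence. It left 2717 transcripts in 2031 of the 2702 genes, with 3 of the 5 Srsf genes and 9 of the 14 ER stress genes. With the limit of 200, 9 ER stress genes were also left. With the sequence requirement on the ordinary transcript instead, 2330 genes had both forms. Among genes with 2 or more coding transcripts the percent of genes with the feature was 25.0, against 13.7 of all. With the longest coding sequence as the only reference, 17 transcripts had the stop in untranslated exon sequence of another, against 60. The Hnrnp genes were 9 with a limit of 0 bases and 4 with a limit of 200, against 6. The other alternatives moved these counts by less than 1.5 times. No paired analysis was possible because the annotation holds no values for the samples. The counts describe transcript models and depend on which transcripts were annotated for each gene, not on read depth. How complete the annotation of each gene is was not measured.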

Other observations

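Ribosomal protein genes, whose transcripts are among the most abundant in most cells, had the feature in 7 of 83 cases (8.43%), and in 15.6% of the 45 with 2 or more coding transcripts, beside 13.7% and 25.0% of all genes. In transcripts it was 7 of 185 (3.78%), beside 8.38% of all. By chromosome the percent of genes with the feature ran from 12.0 to 18.4 on most of the chromosomes, with the highest value on chromosome 16 (106 of 575 genes) and the next on chromosome 5 (17.9, 220 of 1230). Lower values were found on chromosome 13 (11.5), the X (8.90), chromosome 14 (8.36) and the Y, where 3 of 76 genes had it (3.95). The number of annotated transcripts per gene was not compared between chromosomes.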
